A study of Mus musculus with 2 samples.

Results

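The cells described here are hypoxic tumor cells that carried the mRNA of *Car9*, which encodes the carbonic anhydrase of the cell surface that is switched on by low oxygen. They were picked from single-cell libraries of mouse glioblastoma by their unique molecular identifiers (UMIs, each standing for 1 captured molecule). A cell was taken when it held at least 2 *Car9* UMIs and at least 3 UMIs on at least 3 of the genes *Vegfa*, *Ero1l*, *P4ha2* and *Slc2a1*, with at most 3 UMIs over the C1q genes of macrophages and at most 1 of the mitotic gene *Top2a*. Of 56943 barcodes, 781 met these limits, or 1.37%. For 49 of them the markers of another cell type led, most often those of fibroblasts with 35 cells, and these were set aside. The remaining 732 cells, 188 from vehicle and 544 from Xevinapant tumors, are called hypoxic cells below and were set against 10272 other tumor cells under the same limits on C1q and *Top2a*.

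Both groups were orthotopic tumors grown in the striatum of C57BL/6J mice from Trp53+/- and Nf1+/- mouse glioblastoma stem cells, a single engineered model that the controls shared. One group was given vehicle and the other Xevinapant, a mimetic of the mitochondrial protein SMAC that binds the inhibitor of apoptosis proteins cIAP1, cIAP2 and XIAP, orally at 50 mg per kg per day, and tumors were taken after 7 days from female mice bought at 6 to 8 weeks of age. Tumors of 4 mice per group are described for this experiment, and each group held 4 count matrices, with no label that ties a matrix to a mouse. The SD of the expression differences between matrices, scaled so that sampling noise alone gives about 1, was 1.05 for vehicle 1 and 3, 1.53 for Xevinapant 1 and 2 and 1.49 for Xevinapant 3 and 4, against 2.36 to 4.14 for the other pairs within a group. Each of these 3 pairs was joined and counted as 1 sample, although both Xevinapant pairs differed by more than sampling noise. This left vehicle 1+3, vehicle 2 and vehicle 4 against Xevinapant 1+2 and Xevinapant 3+4, with 111, 35, 42, 301 and 243 hypoxic cells. The groups were also run as separate pools on separate dates, and their labels name total RNA for vehicle and polyA RNA for Xevinapant, so that batch and treatment cannot be told apart. The files deposited for Xevinapant are named as Vehicle, against their label, and the label decided their group.

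When oxygen falls, the prolyl hydroxylases that mark hypoxia-inducible factor (HIF) for destruction lose their substrate, and HIF accumulates and binds the hypoxia response element, whose core reads ACGTG, near its target genes. The targets raise glucose uptake and glycolysis, export acid, recruit vessels, modify collagen and turn over mitochondria. In glioblastoma, hypoxic cells lie around necrosis, and a mesenchymal-like tumor state rich in hypoxia genes is a known one beside the oligodendrocyte progenitor-like (OPC-like), astrocyte-like (AC-like) and neural progenitor-like (NPC-like) states.

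The promoters of 3 genes of the rule and of *Bnip3*, a mitophagy receptor and textbook HIF target, are shown as the 250 bases before the annotated start, because they hold the letters of the HIF element close to it. They are from RefSeq on GRCm38.p6 and read 5′ to 3′ on the strand of the gene, and capitals mark ACGTG on either strand. The *Car9* window is chr4:43506776-43507025 on the plus strand, with its match beginning 18 bases before the start. The *Slc2a1* window is chr4:119108495-119108744 on the plus strand, with a match 36 bases before the start. The *P4ha2* window is chr11:54100674-54100923 on the plus strand, with a match 78 bases before the start. The *Bnip3* window is chr7:138909507-138909756 on the minus strand, and its CACGTG holds a match on each strand, 108 and 107 bases before the start. Of the 2 windows of *Vegfa* in the table, 1 held no match and the other a match 211 bases before its start, and *Ero1l* is not shown.
Car9: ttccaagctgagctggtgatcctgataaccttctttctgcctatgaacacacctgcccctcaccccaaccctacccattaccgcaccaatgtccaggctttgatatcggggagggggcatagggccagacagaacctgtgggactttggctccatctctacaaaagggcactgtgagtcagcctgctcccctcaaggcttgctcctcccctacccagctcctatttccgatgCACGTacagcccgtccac
Slc2a1: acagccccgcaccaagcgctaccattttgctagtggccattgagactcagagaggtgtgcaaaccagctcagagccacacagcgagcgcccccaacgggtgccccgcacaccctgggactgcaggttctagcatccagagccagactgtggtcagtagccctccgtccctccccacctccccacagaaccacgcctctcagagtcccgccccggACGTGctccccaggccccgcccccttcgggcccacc
P4ha2: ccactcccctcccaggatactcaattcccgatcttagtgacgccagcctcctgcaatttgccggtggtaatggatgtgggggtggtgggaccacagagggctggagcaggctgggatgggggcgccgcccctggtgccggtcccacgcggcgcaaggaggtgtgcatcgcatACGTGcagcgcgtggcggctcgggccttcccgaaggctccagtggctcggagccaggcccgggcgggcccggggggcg
Bnip3: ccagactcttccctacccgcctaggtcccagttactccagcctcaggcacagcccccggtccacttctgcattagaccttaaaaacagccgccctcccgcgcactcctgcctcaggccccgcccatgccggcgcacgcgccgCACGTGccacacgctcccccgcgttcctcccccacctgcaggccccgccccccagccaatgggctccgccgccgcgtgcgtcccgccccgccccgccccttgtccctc

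The letters ACGTG were counted in the same window of every gene. They stood in 48 of the 120 genes with a promoter in the table among those higher in hypoxic cells (40.0%), in 44 of 116 without the rule genes (37.9%), in 13 of 78 among those lower (16.7%) and in 1912 of the 7293 expressed genes with a promoter (26.2%). All 32851 windows of the table held them in 16.6%, and 18.5% of its genes had them in a window. The related letters GCGTG were as frequent among the higher genes (54.2%) as among the expressed genes (53.7%). Among the lower genes they were rarer (34.6%), as ACGTG was. A match of 5 letters is a description of the window and not evidence of binding.

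The 5 genes of the rule differ between hypoxic and other tumor cells by construction and are given here as levels, with no test. *Car9* stood at 456, 389 and 357 counts per 1000000 UMIs (CPM) in the hypoxic cells of vehicle 1+3, 2 and 4 and at 384 and 396 in those of Xevinapant 1+2 and 3+4, with 1.91 to 14.1 CPM in other tumor cells. *Slc2a1*, the glucose transporter GLUT1, stood at 1935, 1364 and 1249 against 1613 and 2359 CPM, with 180 to 292 in other tumor cells. *Vegfa*, the main vessel growth factor, stood at 3035, 2511 and 2566 against 2794 and 3397 CPM. The levels of these 3 genes in hypoxic cells overlapped between the treatment groups. *Ero1l*, the oxidase that forms disulfide bonds in the endoplasmic reticulum, stood at 7744, 8436 and 5139 against 4676 and 6934 CPM, and *P4ha2*, a prolyl hydroxylase of collagen, at 758, 445 and 461 against 628 and 689 CPM. The median hypoxic cell held 4 *Car9*, 39 *Vegfa*, 64 *Ero1l*, 7 *P4ha2* and 16 *Slc2a1* UMIs, and the median other tumor cell 0, 2, 3, 0 and 1.

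Many cells lay near the limits of the rule. Among tumor cells that passed 3 or 4 of the partner genes, 171 held exactly 2 *Car9* UMIs, just inside, while 334 held 1 and 1884 held none, just outside. Among those with at least 2 *Car9* UMIs, 524 passed all 4 partners, 208 passed 3 and 53 passed 2. *P4ha2* was the partner most often missed, with 78.0% of hypoxic cells at 3 UMIs or more against 99.9% for *Vegfa* and 93.7% for *Slc2a1*. The hypoxic cells also held more RNA, with a median of 14978 UMIs against 10310 in other tumor cells. The rule sets fixed UMI counts and so favors deeper cells, so that this difference is not independent of it. The mitochondrial share of hypoxic cells was lower, 0.369% against 0.794% at the median. A *Car9* UMI was present in 5.95% of other tumor cells and in 13.6% of 1681 macrophages and microglia, whose median depth was 9838 UMIs. After each cell was thinned to 5000 UMIs, leaving out 37 hypoxic cells, 1162 other tumor cells and 208 macrophages below that depth, the shares were 78.7%, 2.74% and 6.25%. The rule had taken the cells richest in *Car9* out of the other tumor cells, while macrophages had no limit on *Car9*. The shares of these 2 populations can therefore not be ranked. Of the 533 tumor cells with 1 *Car9* UMI, 334 passed 3 or 4 partners, against 1884 of the 9661 with none.

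Marker levels describe how the cells were kept, since cells led by markers of another type and cells with over 3 C1q UMIs had been set aside, while the chromosome profile was not used to choose them. The summed tumor markers reached 43.3 to 71.0 UMIs per 10000 in the hypoxic cells of the 5 samples, below the 89.2 to 120.9 of other tumor cells and above the 14.7 to 35.4 of macrophages and microglia. Relative to the macrophages of the same sample, the median log2 ratio over the genes of a chromosome, centred on all genes and averaged over samples, was lower on chromosomes 4, 16 and 19, at -0.23, -0.22 and -0.23 in hypoxic and -0.33, -0.25 and -0.27 in other tumor cells, and higher on chromosomes 14 and 15, with 0.22 and 0.28 in hypoxic and 0.22 and 0.21 in other tumor cells. The profiles were apart on chromosome 2, at -0.01 in hypoxic and 0.14 in other tumor cells, and on chromosome 18, at -0.01 and -0.12. Across 20 chromosomes the profiles of both correlated at 0.744 to 0.939 in the 5 samples, where the points share the library and the reference cells. Markers of endothelial cells stayed at 0.173 to 0.279 UMIs per 10000 in hypoxic cells against 0.198 to 0.421 in other tumor cells, and those of macrophages at 0.443 to 1.75, against 178 to 213 in macrophages. Fibroblast markers reached 1.484 to 3.53 against 1.37 to 2.98, and mural markers 0.366 to 1.16 against 1.16 to 1.37. Of the listed markers, 6 of 8 endothelial, 3 of 8 fibroblast, 6 of 7 mural, 6 of 11 macrophage and all 8 lymphocyte genes stood below 5 CPM in hypoxic cells, and 1 mural, 2 lymphocyte and 1 of 6 oligodendrocyte genes had no UMI there. Monocyte and neutrophil markers varied widely, at 0.735, 0.058 and 1.94 in the vehicle and 0.249 and 0.419 in the Xevinapant samples.

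Beyond the rule genes, hypoxic cells were set apart by a broad set of genes, described here list by list. A gene was counted when it was at least 2-fold higher, or lower, than in the other tumor cells of the same sample in each of the 5 samples. Of 9109 genes at a mean of at least 20 CPM in either population, 152 were higher (1.67%) and 114 lower (1.25%). Because the rule chose the cells by genes of the same cells, these counts describe the cells and no test was run on them. The median log2 fold of all these genes was -0.14, and the values below are not corrected for it. With other tumor cells matched on UMIs, 151 genes were higher, 127 of them shared, and 74 lower, 66 of them shared. Without vehicle 4, 176 were higher and 180 lower. Folds are means of the 5 samples with the standard deviation (SD), and a gene with no UMI in one of the populations of a sample was taken at 3 UMIs there, which makes its fold a lower bound. Within each list, up to 4 genes with the largest differences are named, and any further gene was chosen after its values were seen.

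**Figure D1:**
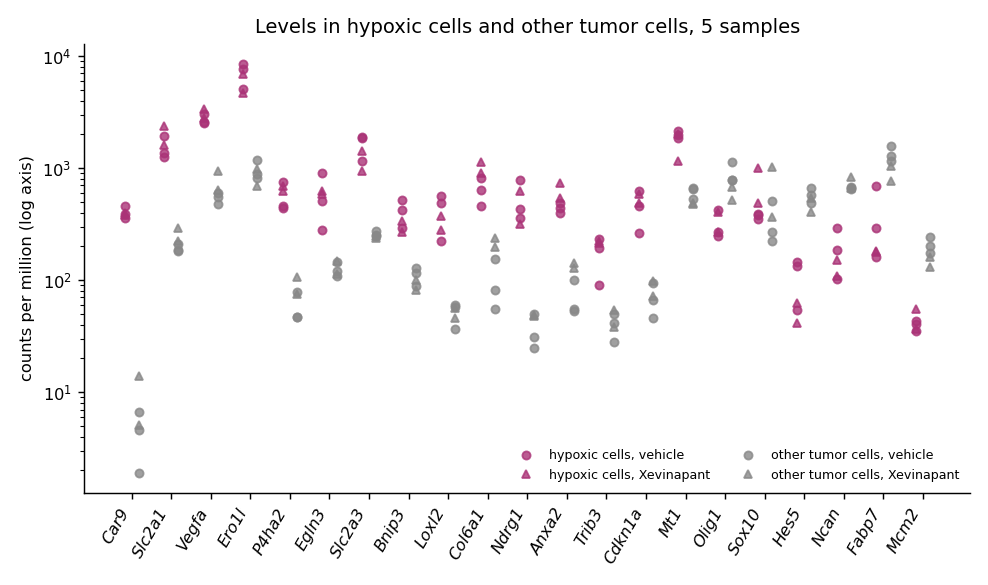
Levels of 21 genes in CPM on a log axis, for hypoxic cells (purple) and other tumor cells (grey), with 1 point for each of the 5 samples, circles for vehicle and triangles for Xevinapant. The rule genes stand at the left; *Ndrg1*, *Cdkn1a* and *Slc2a3* show no overlap between the populations, while *Sox10* overlaps and *Hes5*, *Ncan*, *Fabp7* and *Mcm2* lie lower in hypoxic cells.

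Among 17 expressed genes of HIF feedback and oxygen sensing, 6 were higher and none lower, with a list median log2 fold of 1.002. *Egln3*, an oxygen-dependent prolyl hydroxylase that HIF itself induces, stood at 901, 507 and 283 CPM in the hypoxic cells of vehicle 1+3, 2 and 4 and at 590 and 630 in those of Xevinapant 1+2 and 3+4, against 109 to 149 in other tumor cells. Every sample of hypoxic cells lay above every sample of other tumor cells, with a mean log2 fold of 2.11 ± 0.49 (SD, n = 5). The HIF target *Ankrd37* stood 1.95 ± 0.23 higher, the second sensor *Egln1* 1.71 and the lipoprotein receptor *Vldlr* 1.64. The mRNA of *Hif1a* itself, the oxygen-regulated subunit, stood at 137 to 191 against 67.7 to 97.8 CPM, a log2 fold of 1.0 ± 0.18 that did not reach 2-fold in each sample, and *Epas1*, which encodes HIF-2 alpha, stood at -0.23.

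Glycolysis and glucose uptake held the largest share of the lists beyond the rule genes, with 9 of 22 expressed genes higher and none lower and a list median of 1.15. *Slc2a3*, the high-affinity glucose transporter GLUT3, stood at 1900, 1856 and 1163 CPM in the vehicle and 949 and 1432 in the Xevinapant samples, against a narrow 240 to 273 in other tumor cells, a log2 fold of 2.48 ± 0.45 (n = 5). The glycogen branching enzyme *Gbe1* was 2.29 ± 0.56 higher, the isomerase *Gpi1* 1.73 and hexokinase 2 (*Hk2*) 1.67. *Ldha*, which makes lactate, and *Pgk1* stood at 1.14 ± 0.17 and 1.17 ± 0.18 and fell short of 2-fold in at least 1 sample. Of 5 expressed genes of lactate and acid handling, *Bsg*, the chaperone of lactate transporters, was higher at 1.57 ± 0.25. The lactate exporter *Slc16a3* and the second surface carbonic anhydrase *Car12* were under the level minimum, at means of 4.21 and 5.34 CPM in hypoxic cells. Of 7 expressed angiogenic factors, the vessel peptide *Apln* (1.80 ± 0.45) and the secreted glycoprotein *Stc2* (1.81 ± 0.35) were higher, and *Adm* was under the level minimum at 17.5 CPM.

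Genes of collagen modification and matrix were higher in 9 of 24 expressed cases, with none lower and a list median of 1.36. *Loxl2*, an oxidase that cross-links collagen, stood at 561, 225 and 492 CPM in the vehicle and 278 and 370 in the Xevinapant samples against 36.3 to 59.7 in other tumor cells, with no overlap and a log2 fold of 2.85 ± 0.38. The collagen VI chains *Col6a1* and *Col6a2* were 2.58 ± 0.60 and 2.94 ± 0.98 higher. *Fn1*, which encodes fibronectin, varied widely, at 1400, 405 and 844 CPM in the vehicle and 2405 and 5414 in the Xevinapant samples. The summed fibroblast markers given above were higher in hypoxic than in other tumor cells in each of the 5 samples. Their 4 expressed genes had a median log2 fold of 1.22, with none past the limit, and their part in the collagen values was not tested.

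Of 14 expressed genes of mitochondrial turnover and cell death, 4 were higher and none lower. *Bnip3* stood at 521, 424 and 292 CPM in the vehicle and 267 and 339 in the Xevinapant samples against 81.1 to 128 in other tumor cells, a log2 fold of 1.82 ± 0.26. The stress inhibitor of mTOR *Ddit4* (1.49) and the mitochondrial protein *Higd1a* (1.47) were also higher. *Ndufa4l2*, the hypoxic counterpart of the respiratory chain protein *Ndufa4*, was 2.22 ± 0.56 higher, while *Ndufa4* stood at -1.36 ± 0.21 on the log2 scale, at 37.3 to 80.3 against 90.2 to 180 CPM. *Ndufa4* was the sole gene past the limit among 26 expressed genes of the respiratory chain, whose median was -0.41. None of 14 expressed genes of the inhibitor of apoptosis and death receptor list was higher or lower, and its median was -0.06.

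The mesenchymal-like part of the label rests on some of its genes. Of 22 expressed mesenchymal-like genes, 8 were higher and none lower, with a median of 1.27. *Ndrg1*, a hypoxia-induced stress gene and one of the study's markers of the state, stood at 432, 358 and 787 CPM in the vehicle and 314 and 619 in the Xevinapant samples against 24.9 to 49.4 in other tumor cells, a log2 fold of 3.60 ± 0.86. *Ndrg1* was detected in 68.4% of hypoxic and 15.7% of other tumor cells, and in 49.8% and 9.30% with cells thinned to 5000 UMIs. The calcium-binding membrane protein *Anxa2* (2.53 ± 0.45), the AP-1 subunit *Fosl2* (2.48) and the lipid droplet protein *Hilpda* (2.30 ± 0.35) were higher too. The study's other markers *Akap12* and *Wwtr1* stood at 0.58 ± 0.60 and 0.81 ± 0.40 and were not counted. *Vim*, which encodes vimentin, stood at 3074, 2378 and 3593 CPM in the vehicle and 2549 and 3898 in the Xevinapant samples against 2379, 2577, 3938, 2631 and 3818 in the other tumor cells of the same samples, a log2 fold of 0.02 ± 0.20. The hyaluronan receptor *Cd44* stood at 1.42 ± 0.39 and did not reach 2-fold in each sample.

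Stress genes were higher in part. Of 28 expressed genes of the unfolded protein response and ATF4, 6 were higher and none lower. Besides *Vegfa*, which the rule used, these included the pseudokinase *Trib3*, at 194, 231 and 90.0 CPM in the vehicle and 216 and 224 in the Xevinapant samples against 28.1 to 54.3 in other tumor cells (log2 2.13 ± 0.38), the repressor *Atf3* (2.05 ± 0.25) and *Nupr1* (2.05). The proapoptotic factor *Ddit3* was higher as well at 1.84 ± 0.31. The chaperone gene *Hspa5* stood at 0.84 and *Xbp1* at 0.96, both uncounted. Of 19 expressed genes of lipid and iron, the metallothioneins *Mt1* (1.69 ± 0.30) and *Mt2* (1.73) were higher with *Hilpda*, and *Fabp7* was lower. Of 17 expressed immediate early genes, 4 were higher, the stem cell and stress factor *Klf4* at 2.58 ± 0.80, *Ier3* at 2.43, *Atf3*, and *Fos* at 1.79 ± 0.96. None of 12 expressed heat shock genes was higher or lower. Of 8 expressed chemokine and cytokine genes, the cytokine *Lif* was higher, at 20.5, 27.0 and 80.3 CPM in the vehicle and 40.4 and 128 in the Xevinapant samples. None of 14 expressed genes of immune inhibition and antigen presentation was higher or lower, and *B2m*, the light chain of MHC class I, stood at -0.41 ± 0.46.

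**Figure D2:**
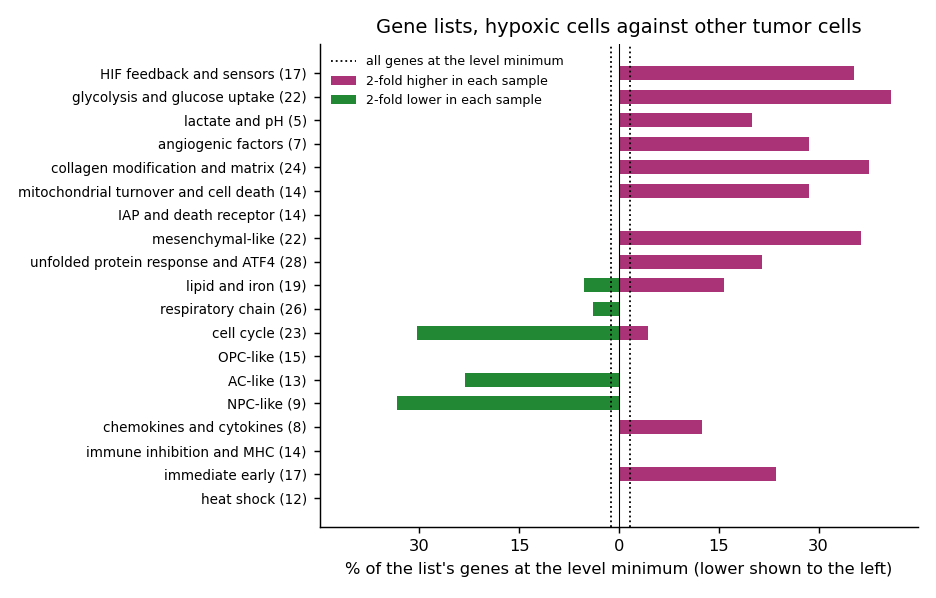
Share of each list's expressed genes that were at least 2-fold higher (purple, to the right) or lower (green, to the left) in hypoxic than in other tumor cells in each of the 5 samples, with the number of expressed genes in brackets. Dotted lines mark the 1.67% higher and 1.25% lower over all 9109 genes; hypoxia, glycolysis, matrix and mesenchymal-like lists lie to the right, and cell cycle, AC-like and NPC-like lists to the left.

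The cell cycle list went the other way, with 7 of 23 expressed genes lower and 1 higher. The higher gene was *Cdkn1a*, which encodes the cell cycle inhibitor p21 and stood at 627, 461 and 265 CPM in the vehicle and 488 and 587 in the Xevinapant samples against 46.1 to 99.0 in other tumor cells, a log2 fold of 2.67 ± 0.27. It was detected in 86.1% of hypoxic and 27.7% of other tumor cells, and in 71.8% and 18.1% after thinning to 5000 UMIs. The replication licensing genes were lower, *Mcm2* at 35.3 to 55.2 against 132 to 243 CPM (log2 -2.10 ± 0.40), *Mcm5* at -2.35 and *Mcm3* at -1.97. Both populations had been limited to at most 1 *Top2a* UMI, so that these differences are among cells with little *Top2a*. That limit alone cut the barcodes within the quality, depth and C1q limits from 36843 to 11760. Without it, 200, 87 and 120 tumor cells of vehicle 1+3, 2 and 4 met the other limits of the rule, against 111, 35 and 42 with it. In Xevinapant 1+2 and 3+4 they numbered 489 and 494, against 301 and 243. The hypoxic cells described here are therefore no measure of cycling among all cells with these hypoxia genes.

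Genes of the glial and neuronal tumor states were lower, or lay mostly below 0 without reaching the limit. None of 15 expressed OPC-like genes was past the limit, with a median of -0.57. *Olig1* and *Olig2*, transcription factors of the oligodendrocyte lineage, stood at -1.26 ± 0.40 and -1.19 ± 0.26. *Sox10*, of the same lineage, stood at 387, 385, 349, 1000 and 490 CPM in the hypoxic and 510, 225, 270, 1015 and 365 CPM in the other tumor cells of vehicle 1+3, 2 and 4 and Xevinapant 1+2 and 3+4, and moved with the sample in both. Of 13 expressed AC-like genes, 3 were lower and none higher. The fatty acid binding protein *Fabp7* stood at 291, 160 and 697 CPM in the vehicle and 182 and 179 in the Xevinapant samples against 765 to 1591 (log2 -2.16 ± 0.68). The inhibitor of differentiation *Id4* stood at -2.60 and the water channel *Aqp4* at -3.85 ± 1.47, with no *Aqp4* UMI in the hypoxic cells of vehicle 2. *Gfap* stood at -1.63 ± 0.83 and was not counted. Of 9 expressed NPC-like genes, *Dcx*, *Igfbpl1* and *Rbfox3* were lower at -2.58, -3.29 and -3.50, the last 2 with a sample at 0. *Igfbpl1* stood at -7.8 in Xevinapant 3+4 and at -4.47 to -1.23 in the other samples. The brain proteoglycan *Ncan* was lower at 102 to 292 against 650 to 838 CPM.

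Outside the lists, the largest difference was that of *Kctd16*, an accessory subunit of GABA-B receptors, higher at 16.4 to 41.8 against 0.725 to 2.36 CPM (log2 4.40 ± 0.92). *Kctd16* was detected in 17.6% of hypoxic and 1.32% of other tumor cells, and in 9.64% and 0.659% with cells thinned to 5000 UMIs. The neuropeptide precursor *Vgf* (3.34 ± 0.43), *Stac2* (3.15), the Hippo pathway factor *Tead4* (3.65 ± 1.07), *Ahnak2* (3.17), the surface receptor *Cd93* (3.06 ± 0.72) and *Tnfrsf23*, a decoy receptor for TRAIL (3.31 ± 1.05), were higher in each sample. *Aldh1a3*, an aldehyde dehydrogenase of retinoic acid synthesis, stood at 3.21 to 96.3 against 0.602 to 1.33 CPM, with 2 UMIs in vehicle 4 and 28.8% of its UMIs in hypoxic cells from 1 cell. A single cell likewise gave 11.3% of the *Vgf* UMIs, against 5.47% for *Ndrg1* and 3.06% for *Car9*. The 8 genes with the largest mean differences among those lower outside the lists were *Hes5*, a Notch target of neural progenitors, at 41.5 to 144 against 408 to 659 CPM (-2.78 ± 0.80), *Apcdd1*, an inhibitor of Wnt signaling, at 7.71 to 12.5 against 31.9 to 101 CPM (-2.66 ± 0.41), and *Cntn2*, *Nhlh1*, *Sez6*, *Lfng*, *Celsr3* and *Sarm1*, whose mean levels in hypoxic cells were 2.01 to 14.4 CPM and rested on few UMIs, with *Cntn2* at 0 in vehicle 2 and *Nhlh1* at 0 in vehicle 4.

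Cells were also ordered by the rule genes, from 7777 tumor cells with no *Car9* UMI and fewer than 3 partners, over 1884 with no *Car9* but 3 or 4 partners and 334 with 1 *Car9* UMI, to 367 hypoxic cells with 2 to 4, 211 with 5 to 9 and 154 with 10 or more *Car9* UMIs. *Ndrg1*, which the rule did not use, stood at sample means of 12.1, 101, 232, 260, 395 and 1284 CPM along this order. *Cdkn1a* stood at 29.8, 184, 321, 370, 519 and 620 CPM, and *Loxl2* at 24.0, 112, 186, 277, 450 and 550 CPM. All 3 were already several times higher in cells with the partners but no *Car9* UMI than in those without either. *Hes5* went down over the same order, at 612, 352, 200, 99.6, 87.6 and 66.8 CPM, as did *Olig1*, at 840, 629, 515, 363, 322 and 232 CPM, while *Sox10* stayed between 425 and 571 CPM. The median depth moved with the order, at 9709, 12972, 11675, 12295, 15469 and 21983 UMIs, and its part was not tested. The last class held as few as 4 cells in a sample, and *Ndrg1* there ranged from 441 to 3700 CPM and *Sox10* from 15.8 to 874 CPM.

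**Figure D3:**
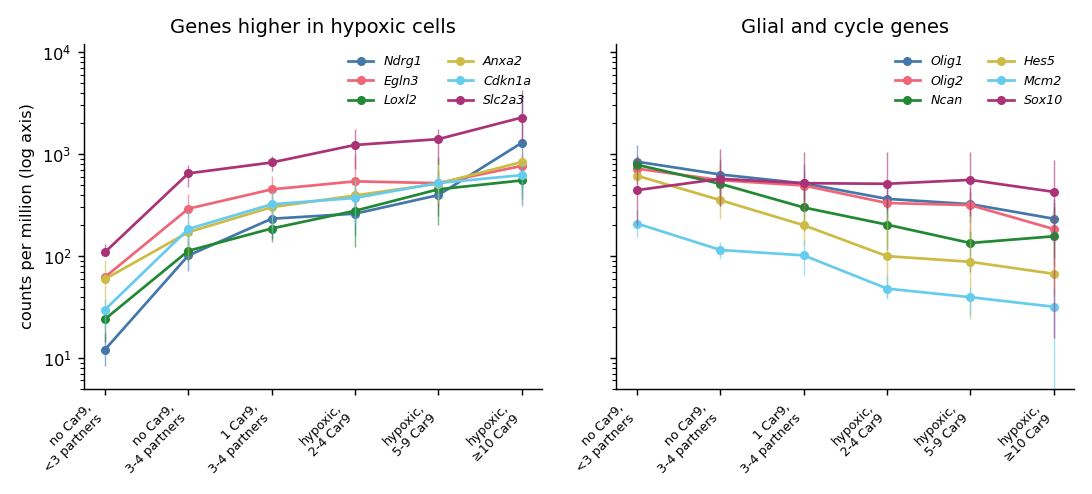
Mean CPM over the 5 samples, on a log axis, in 6 classes of tumor cells ordered by *Car9* UMIs and the number of partner genes at 3 UMIs or more, with bars from the lowest to the highest sample (a sample with *Mcm2* at 0 runs off the axis). *Ndrg1* climbs from 12.1 to 1284 and *Cdkn1a* from 29.8 to 620, while *Hes5* falls from 612 to 66.8. The mean of *Sox10* stays between 425 and 571, with samples from 15.8 to 874 in the last class.

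The share of hypoxic cells was compared between treatments over samples. They made up 5.54% of tumor cells under the same limits in vehicle 1+3 (95% Wilson interval 4.62 to 6.63%), 2.46% in vehicle 2 (1.78 to 3.40%) and 1.79% in vehicle 4 (1.33 to 2.41%), against 14.1% in Xevinapant 1+2 (12.7 to 15.6%) and 7.85% in Xevinapant 3+4 (6.95 to 8.85%). The intervals cover counting error only. Both Xevinapant samples lay above all 3 vehicle samples, with means of 10.96 ± 4.41% (SD, n = 2) and 3.26 ± 1.998% (SD, n = 3) and a difference of 7.70 points. The exact two-sided permutation test gave p = 0.1, the smallest value that 3 against 2 samples allow, so that this design cannot pass 0.05. With each matrix taken as 1 sample the difference was 7.16 points with an exact permutation p of 0.0286, the smallest value that 4 against 4 allow. That setting counts the alike matrices of the joined pairs as separate samples, so that its p does not rest on samples known to be independent. Without Xevinapant 1+2 the difference was 4.58 points. Among all barcodes that passed quality limits the means were 2.50% and 0.669%. With every cell thinned to 5000 UMIs, 5.59% and 1.66% of the cells still met the rule, and the same cells unthinned differed by 9.02 points. The higher depth of the hypoxic cells was itself larger in the Xevinapant samples, with medians of 15936 and 16703 UMIs against 10385, 12063 and 11923.

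**Figure D4:**
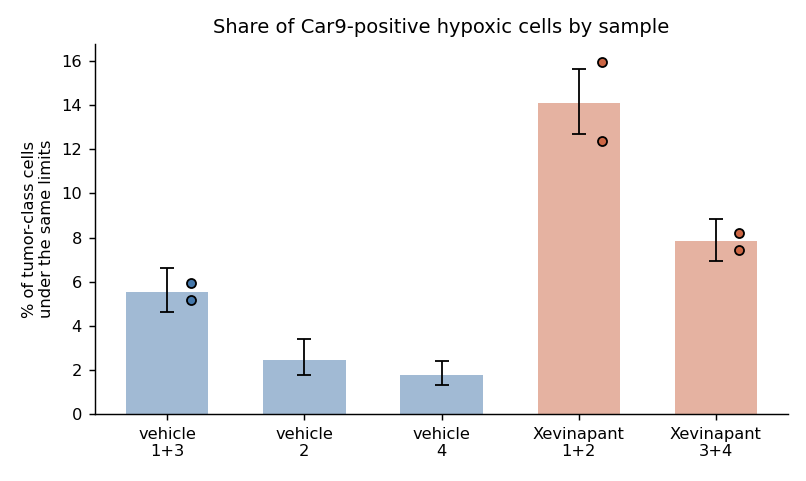
Hypoxic cells as a percentage of tumor cells under the same limits on C1q and *Top2a*, in each of the 5 samples, with 95% Wilson intervals that cover counting error and points for the matrices that were joined. The Xevinapant samples reach 14.1% and 7.85% and the vehicle samples 5.54%, 2.46% and 1.79%.

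Expression within the hypoxic cells was then compared between Xevinapant and vehicle, in UMIs summed per sample, with edgeR's quasi-likelihood test and Benjamini-Hochberg adjustment over 10872 genes. None passed an adjusted p of 0.05 (0% called), with 696 genes (6.40%) at an unadjusted p under 0.05 and a smallest adjusted p of 0.460, and DESeq2 called 15. In other tumor cells 0 of 13303 genes passed (0% called), with 1335 (10.0%) at an unadjusted p under 0.05 and 139 called by DESeq2. The difference of the treatment effect between hypoxic and other tumor cells passed for 0 of 13044 genes (0% called), with 586 (4.49%) at an unadjusted p under 0.05, a smallest adjusted p of 0.0694, and 11 called by DESeq2. With each sample left out in turn, 7 genes were called in hypoxic cells without Xevinapant 3+4, 3 without vehicle 2 and 1 without vehicle 1+3, and for the difference 24 without Xevinapant 3+4, 18 without vehicle 2, 6 without vehicle 1+3 and 1 without Xevinapant 1+2. Counts of 0 do not show that the levels were alike.

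The genes of the rule had to reach the same UMI limits in both treatments, so that their values in the selected cells are given as a description, with no test. The log2 fold change of Xevinapant over vehicle was -0.04 ± 0.19 (SE) for *Car9*, 0.20 ± 0.25 for *Vegfa*, -0.29 ± 0.34 for *Ero1l*, 0.24 ± 0.26 for *P4ha2* and 0.39 ± 0.28 for *Slc2a1*. The genes of Xevinapant's targets stood in other tumor cells at 36.3 to 43.9 CPM for *Birc2*, 12.6 to 24.98 for *Xiap* and 8.11 to 12.9 for *Birc3*. In hypoxic cells *Birc2*, which encodes cIAP1, stood at 42.2, 25.1 and 35.4 CPM in the vehicle and 35.6 and 41.3 in the Xevinapant samples (log2 0.10, edgeR adjusted p = 0.965). *Xiap* stood at 18.8, 13.5 and 28.9 against 9.68 and 14.4 CPM (log2 -0.76, edgeR adjusted p = 0.811), and *Birc3*, which encodes cIAP2, at 5.13, 1.93 and 20.9 against 7.55 and 7.80 CPM. The treatment groups overlapped for all 3.

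The 5 genes with the smallest p among those with higher values under Xevinapant were *Col9a2*, *Parm1*, *Matn4*, *Col1a1* and *Klk14*. *Col9a2*, a chain of cartilage collagen IX, stood at 121, 84.8 and 67.5 CPM in the hypoxic cells of the vehicle and 460 and 252 in those of the Xevinapant samples, with no overlap (log2 1.92, edgeR adjusted p = 0.460). For *Parm1* the edgeR adjusted p was 0.0276 without vehicle 1+3. Leaving that sample out drops its 40 *Parm1* UMIs, and vehicle 2 and vehicle 4 held 2 UMIs each. *Col1a1*, a chain of collagen I, stood at 99.1, 77.1 and 104 against 239 and 173 CPM (log2 1.14), and *Parm1* at 22.8, 3.85 and 3.21 against 102 and 81.9 CPM (log2 2.75). *Col1a1* is also one of the fibroblast markers by which cells were set aside, and the part of fibroblast RNA in its values was not tested. The matrix protein *Matn4* stood at 2.28, 0 and 4.82 against 35.8 and 18.5 CPM, with 16.8% of its UMIs from 1 cell. For the protease *Klk14*, at 6.27, 1.93 and 3.21 against 19.7 and 43.9 CPM, 39.9% of the UMIs came from 1 cell.

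The 5 with the smallest p among those with lower values were *Il1b*, *Trp53i11*, *Flrt2*, *Enpp6* and *Mlc1*. *Trp53i11* stood at 96.3, 214 and 94.8 CPM in the vehicle and 33.8 and 35.7 in the Xevinapant samples (log2 -1.91), and the adhesion protein *Flrt2* at 32.5, 44.3 and 28.9 against 10.8 and 12.5 CPM (log2 -1.56). *Enpp6*, a marker of newly formed oligodendrocytes, stood at 49.0, 48.2 and 24.1 against 11.98 and 3.90 CPM, and *Mlc1*, an astrocyte membrane protein, at 64.4, 15.4 and 98.0 against 5.91 and 13.5 CPM. A single cell gave 27.1% of the *Enpp6* UMIs in hypoxic cells, and a single cell 18.0% of those of *Mlc1*. The treatment groups did not overlap for these 4 genes or the 5 above, but choosing genes by the smallest p favors such a gap. The share of all 10872 tested genes without overlap was not counted, so that the gap is no result about these genes. None of them passed the adjustment, with edgeR adjusted p of 0.460 to 0.519. *Il1b*, an interleukin of myeloid cells, overlapped, at 33.6, 0 and 25.7 against 0.164 and 0.205 CPM, and 76.6% of its UMIs in hypoxic cells came from 1 cell. Its edgeR adjusted p was 0.0149 without vehicle 2. The neutrophil genes *S100a8* and *S100a9*, chosen after their values were seen, showed log2 values of -4.67 and -4.34 in hypoxic cells and 2.78 and 3.16 in other tumor cells. In hypoxic cells both were at 0 in vehicle 2, so that the groups overlapped, with 43.0% and 42.0% of their UMIs in 1 cell. The summed monocyte and neutrophil markers, given above, were highest in vehicle 4 and vehicle 1+3. That sum includes *S100a8* and *S100a9*, so that it is no separate observation. The part of the other markers of this list was not tested.

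**Figure D5:**
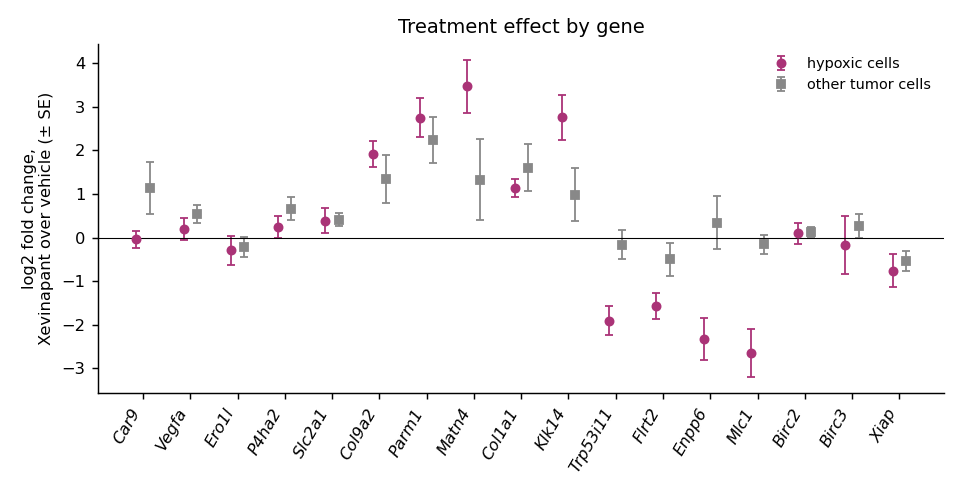
Log2 fold change of Xevinapant over vehicle with its SE, in hypoxic cells (purple) and other tumor cells (grey), for the rule genes, the genes with the smallest p in hypoxic cells and the genes of the drug's targets. *Il1b*, at -6.59, is not drawn; *Col9a2*, *Parm1* and *Matn4* lie above 0 in both populations, and *Trp53i11* and *Mlc1* lie lower in hypoxic cells.

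By list, edgeR called no gene in hypoxic cells. Of 18 immediate early genes, 17 had values above 0 with a median log2 fold change of 0.55, beside 18 of 18 and 0.90 in other tumor cells, while the median over all genes tested was 0.00 and 0.01. Of 27 mesenchymal-like genes, 21 were above 0 with a median of 0.30, beside 26 and 0.66 in other tumor cells, and the matrix list had medians of 0.30 and 0.49. The glycolysis list stood at -0.01 and 0.01 and the HIF feedback list at 0.12 and 0.13. The median of the AC-like list was -0.58 in hypoxic cells and -0.01 in other tumor cells, and that of the unfolded protein response and ATF4 list -0.27 and -0.05. In the test of the difference between both populations, 1 of 18 immediate early, 7 of 27 mesenchymal-like and 13 of 15 OPC-like genes were above 0. Their medians were -0.29, -0.35 and 0.21 beside 0.05 over all genes tested. Of the AC-like list 1 of 15 was above 0 and of the respiratory chain list 25 of 27, with medians of -0.50 and 0.13. EdgeR called none of these genes. Hypoxic cells had to meet the same limits on the rule genes in both treatments, while other tumor cells did not. The part of this selection in the differences between the populations was not tested.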

How the data were processed

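The authors deposited 4 matrices of UMI counts for each of 2 samples, unnormalized whole numbers for 19059 genes from a probe-based 10x Genomics assay of fixed cells, mapped to mm10 per the labels. Their cell calling is in the files, and their quality filters are not.

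Limits of at least 200 detected genes, at most 10% of UMIs from mitochondria and a complexity (log genes over log UMIs) from 0.8 upwards left 54574 barcodes, and dropping those with under their matrix's median UMIs divided by 3 left 40699. Scrublet in scanpy 1.11.5 marked 3612 barcodes as doublets, at a rate set to 10 times that in the methods. They were kept in the main counts, where 5 hypoxic cells (0.683%) and 180 other tumor cells (1.75%) were marked. A cell was of the tumor class where its UMIs summed over the tumor markers exceeded those over each of the other lists compared. These held markers of endothelial cells, fibroblasts, mural cells, macrophages and microglia, monocytes and neutrophils, lymphocytes and erythrocytes. Between 321 and 1603 droplet barcodes were shared between matrices run together, and 154 of 544 Xevinapant and 55 of 188 vehicle hypoxic cells shared a droplet barcode with a cell of another matrix. Of those, none shared it with another hypoxic cell. Hypoxic cells gave 13861160 UMIs in all and other tumor cells 129772279.

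Treatment was tested on UMIs summed per sample with edgeR 4.0.16 (TMM, low-count filter, quasi-likelihood test, Benjamini-Hochberg at 0.05) in R 4.3.3, the difference of effects with the sample as a block, and shares with exact permutation tests in scipy 1.17.1. The scripts were tested on simulated data. Alternatives were DESeq2 1.42.0, no TMM, no low-count filter, no doublets, each matrix as 1 sample, other limits of the rule, thinning, a UMI-matched comparator and each sample left out. Tumors of 4 mice per group are described, no label ties a matrix to a mouse, and joined pairs count as 1 sample, so that p-values measure the spread between these samples, which may be technical. Named genes are the rule genes, up to 4 of each list with the largest difference past 2-fold in each sample, the 8 largest each way outside the lists, and for treatment the 5 each way with the smallest p. A named gene is not reported here. Symbols carried by more than 1 gene identifier were left out. The hypoxic cells, lists and tests were chosen with earlier results of these data known, and the tumor class and the joining of matrices were set after the data were seen.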

Additional observations from a re-analysis of the deposited data

Results flagged for a closer look

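For each of 60 named genes outside the rule, the log2 difference between hypoxic and other tumor cells within each of the 5 samples was checked for a sample far from the rest, which chance gives for about 1 gene in 20. The gap to the nearest sample exceeded 0.71 of the range for 3 genes. *Ier3* stood at 3.45 in vehicle 4 and at 2.0 to 2.42 in the others, and *Fos* at 3.46 in vehicle 4 and at 1.10 to 1.71 in the others. *Aldh1a3* stood at 6.19 in vehicle 2 and at 2.42 to 3.19 in the others, with 28.8% of its UMIs in hypoxic cells from 1 cell.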

How the results depend on the processing

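The Xevinapant samples lay above the vehicle samples in their share of hypoxic cells in every setting run. Leaving out each sample in turn gave differences of 4.58 to 10.8 points. Counting each matrix as 1 sample gave 7.16 points and an exact permutation p of 0.0286, with the alike matrices of the joined pairs counted as if independent. A limit of 1 or 3 *Car9* UMIs gave 9.97 and 6.02 points, and no limit on *Top2a* 5.55 points. The unthinned shares of the deeper cells were an alternative chosen after seeing the data.

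The number of genes 2-fold higher or lower in hypoxic cells rose to 375 and 406 at a limit of 1.5-fold, fell to 74 lower with a UMI-matched comparator, and ran from 152 to 211 higher and 119 to 180 lower with each sample left out. Of the named differences, 777 values were within the spread of samples and 3 moved, among them *Atf3* (1.66) with UMIs matched. The 777 include the values with no minimum level and with the limit of 1.5-fold, which these settings could not change.

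For treatment, genes called in hypoxic cells numbered 15 with DESeq2, 205 with no low-count filter and 0 to 7 with each sample left out. In other tumor cells they numbered 139 with DESeq2, 238 with each matrix as 1 sample and 0 with each sample left out. For the difference of effects they numbered 11 with DESeq2, 87 with no filter, 1 with UMIs matched and 0 to 24 with each sample left out. Of the named genes' treatment values, 162 kept their side of the threshold and 24, over 12 genes, passed it. The cause was not tested. Where a sample left out leaves 1 in a group, that sample is assumed to vary like the rest. No paired analysis was possible because the labels give no replicate numbers and the joined matrices carry different ones. Hypoxic cells of vehicle 2 and vehicle 4 numbered 35 and 42, which limits low genes most.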
